A study of Mus musculus with 28 samples.

Results

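HNGMT denotes mouse embryonic fibroblasts that received GATA4, MEF2C and TBX5 (together GMT), a set of transcription factors used to turn fibroblasts toward cardiac muscle, with Hand2 and NKX2.5 both added. It was compared with GMT alone in 6 of the 28 arrays of the series, 3 of each group. Another 6 arrays, 3 of GMT with Hand2 (HGMT) and 3 of GMT with NKX2.5 (NGMT), gave the change for each factor added singly. The comparison asks whether the change with both factors equals the sum of the changes with each. HNGMT arrays were replicates 1 to 3, HGMT 1 to 3, GMT 3 to 5 of 5, and NGMT 4 to 6 of 6, which are the GMT and NGMT arrays scaled together with the HNGMT arrays.

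All 4 groups shared GATA4, MEF2C and TBX5 on doxycycline-inducible lentiviruses, the rtTA activator and a reporter in which a troponin T promoter drives GCaMP5 and zeocin resistance. Doxycycline was given at 2 μg/mL, zeocin selection lasted 7 days at 300 μg/mL, and RNA was taken at day 21. The selection kept cells in which the troponin T promoter was active, so the arrays describe such survivors and not the whole transduced population. The labels call the replicates biologically independent.

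Hand2 is a basic helix-loop-helix factor that pairs with E proteins on E-box sites, and the embryonic heart needs it for growth of the ventricles. NKX2.5 is a homeodomain factor of early heart development that binds AAGTG-type sites together with GATA4 and TBX5. The atrial natriuretic peptide gene Nppa is a classic shared target of NKX2.5, GATA4 and TBX5. The promoters of the 3 cardiac genes whose levels carry the results below are shown for context, as the 250 bases before the annotated start (RefSeq, GRCm38.p6, transcribed strand, 5′ to 3′). Nppa encodes the atrial peptide, Casq2 cardiac calsequestrin and Myl7 the atrial regulatory myosin light chain, at chr4:148000472-148000721 (+), chr3:102086165-102086414 (+) and chr11:5898783-5899032 (-). Capitals mark AAGTG or its complement CACTT.
Nppa: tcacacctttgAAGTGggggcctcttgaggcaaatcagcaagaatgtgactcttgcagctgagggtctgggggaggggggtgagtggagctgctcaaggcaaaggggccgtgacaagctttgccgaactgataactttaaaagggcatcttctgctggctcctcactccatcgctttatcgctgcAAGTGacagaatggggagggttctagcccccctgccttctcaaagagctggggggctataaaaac
Casq2: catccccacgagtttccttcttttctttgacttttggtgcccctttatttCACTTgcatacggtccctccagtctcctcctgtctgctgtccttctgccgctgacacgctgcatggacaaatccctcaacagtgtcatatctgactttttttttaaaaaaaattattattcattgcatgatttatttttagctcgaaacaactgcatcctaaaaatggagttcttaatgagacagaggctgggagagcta
Myl7: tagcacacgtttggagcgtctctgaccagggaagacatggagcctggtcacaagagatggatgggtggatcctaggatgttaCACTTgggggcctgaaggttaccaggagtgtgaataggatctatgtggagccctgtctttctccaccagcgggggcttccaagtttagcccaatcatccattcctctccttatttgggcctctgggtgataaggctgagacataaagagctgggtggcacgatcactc
The Nppa stretch holds 2 AAGTG matches on either strand, and those of Casq2 and Myl7 hold 1 each. Of 32851 mouse promoters of this length, 40.7% hold at least 1. GATA, counted on both strands, is matched 2 times in Nppa and 1 time in each of the others, and 53.6% of promoters hold it. The E-box CANNTG is matched 2 times in Nppa, 2 times in Casq2 and 1 time in Myl7, against 66.2% of promoters. GGTGTG, the core bound by TBX5, is matched 1 time in Nppa and in neither of the other stretches, against 16.3% of promoters. These are matches of letters, and no binding was measured.

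Values are log2 signal with 1 probe set per gene. Of 19938 genes with a named probe set, 11310 were tested, those whose signal passed the median signal of the array on 3 or more of the 12 arrays. A gene is called, and said to rise or fall, at an adjusted p under 0.05 (limma, Benjamini-Hochberg over all genes tested). Differences are given in log2 ± standard error, from 3 arrays per group. The files give no detection call, so a group below the array median (6.87 to 6.95) on all its arrays may be at background, and the size of a difference from it is not exact.

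The first HNGMT array stood apart. It had 135 genes at least 2-fold from the mean of the other arrays of its group, against 0 to 44 for the other 11 arrays. Of these 135 genes, 133 were higher, and 30 of them were small nuclear or nucleolar RNA genes. Over 44 such genes, a set chosen after the values were seen, this array lay a median of 1.49 log2 above the median of the other arrays, and the other 11 lay between -0.08 and 0.15. Values are for all 12 arrays unless stated. The counts over all genes are also given without HNGMT replicate 1, as is each value below whose call, or whose departure interval holding 0, depended on it, or whose called change moved by over 1.5 times. The part of this array's differences in any result was not tested beyond leaving it out.

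**Figure D1:**
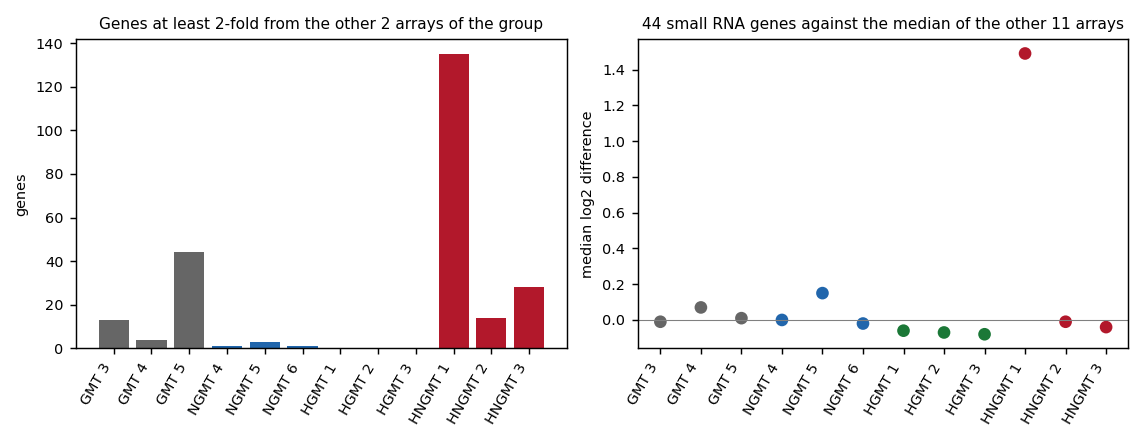
Left, genes at least 2-fold from the mean of the other arrays of the same group, as a bar for each of the 12 arrays. Right, the median log2 difference of 44 small nuclear and nucleolar RNA genes from the median of the other 11 arrays. HNGMT replicate 1 is highest in both, at 135 genes and 1.49.

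The labelled cell type was checked against its markers. Of 54 fibroblast and extracellular matrix genes with a probe set, 53 lay above the array median on all 12 arrays. Of 33 sarcomere genes, 14 lay above it on all 3 HNGMT arrays. Another 11 were below it on all 12 arrays, among them the ventricular genes Myh7, Myl2 and Myl3 and the Z-disc gene Tcap. Tnnt2, whose product is cardiac troponin T, averaged 12.65 in GMT and 12.52 in HNGMT and was not called (-0.13 ± 0.07, adjusted p = 0.221). Cells of every group were selected through a troponin T promoter, so a high Tnnt2 signal is not a separate check. Fibroblast markers were therefore above the median almost throughout, and cardiac contractile markers in part.

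Adding both factors to GMT changed 1903 of 11310 genes, 16.8% of those tested. Of these, 641 rose (5.67%) and 1262 fell (11.2%). Without HNGMT replicate 1, 2408 genes were called (21.3%), 908 higher (8.03%) and 1500 lower (13.3%). Without GMT replicate 3, 1172 were called. The balance between rises and falls depended on the scaling. With each array centred on the median of its tested genes, 943 rose and 863 fell, and after quantile normalization 729 rose and 1119 fell. By at least 2-fold, 92 genes rose and 79 fell.

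Hand2 signal itself followed delivery. It read 7.17, 7.42 and 7.45 in GMT and 9.80, 10.05 and 10.15 in HNGMT, a rise of 2.65 ± 0.1 (limma adjusted p = 8.15e-09). The HGMT arrays, at 9.97, 10.15 and 10.09, overlapped those of HNGMT, and the NGMT arrays, at 7.30, 7.37 and 7.27, overlapped those of GMT. For the other 4 factors no difference was called: Nkx2-5 differed by 0.05 ± 0.07, Gata4 by -0.02 ± 0.08, Mef2c by 0.10 ± 0.09 and Tbx5 by -0.18 ± 0.14. The sources used here do not say whether their probes match the lentiviral sequences. So the arrays do not show NKX2.5 delivery in its own signal, and the label was followed.

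Nppa rose with both factors, by less than with NKX2.5 alone. Its signal was 7.56, 7.58 and 7.87 in GMT and 8.23, 8.42 and 8.48 in HNGMT. In NGMT it stood at 10.81, 10.21 and 10.62, and in HGMT at 6.13, 6.38 and 5.98. The 4 groups did not overlap: NGMT was highest, then HNGMT, then GMT, and HGMT lay lowest and below the array median on all 3 arrays.

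With NKX2.5 alone Nppa rose by 2.87 (limma adjusted p = 3.51e-06), and with Hand2 alone it fell by 1.51 (adjusted p = 3e-05). With both it rose by 0.70 ± 0.15 (adjusted p = 0.00813). The single changes add to 1.36, which exceeds the joint change by 0.66 (departure from additivity -0.66, 95% interval -1.12 to -0.19). This departure had an unadjusted p of 0.00977 and was not called over all genes (limma adjusted p = 0.861). Leaving out HNGMT replicate 1 gave a departure of -0.58. All HGMT arrays lay below the array median, so the fall with Hand2 may exceed 1.51, which would make the departure smaller in size. This was not tested. Raising signals under the array median to it, which changes the HGMT arrays, moved the departure the other way, to -1.41 (adjusted p = 0.13). It was not called under any alternative run, over which its adjusted p ran from 0.0674 to 1.

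Nppa was also the 1 gene of 11310 (0.00884%) called for NKX2.5 alone, and the 1 gene (0.00884%) called when NKX2.5 was added beside Hand2, by 2.22 in HNGMT against HGMT. The NKX2.5 change in Nppa was therefore measured in separate pairs of groups, 2.87 without Hand2 and 2.22 with it. The HGMT arrays lay below the array median, so the size of the second change is not exact. At an unadjusted p under 0.05, 163 genes passed for NKX2.5 alone and 1255 for NKX2.5 beside Hand2. Without HNGMT replicate 1 these counts were 419 and 649.

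**Figure D2:**
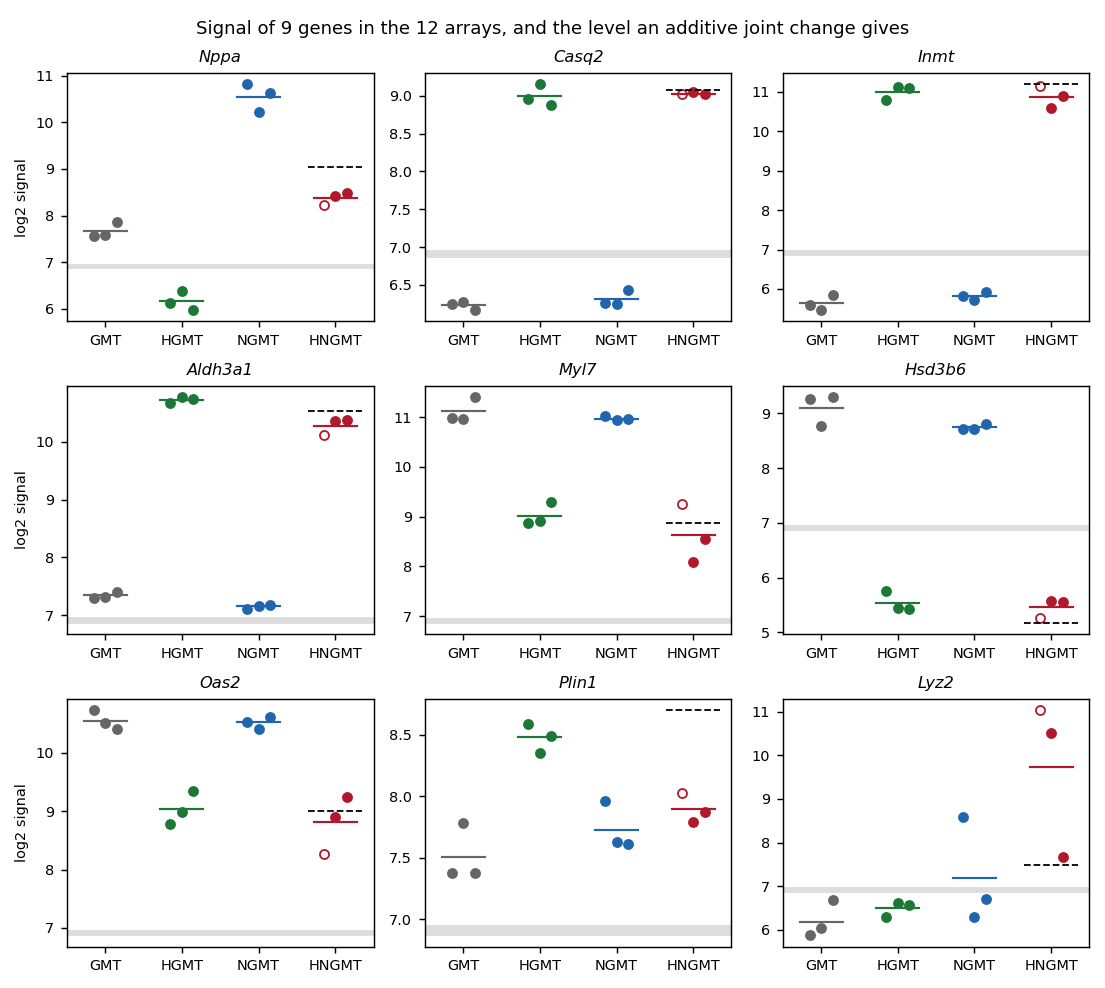
Log2 signal of 9 genes in the 12 arrays, by group, with solid lines for the group means, an open symbol for HNGMT replicate 1 and a dashed line for the level that the sum of the single changes gives. The grey band spans the array medians, 6.87 to 6.95. For Nppa the HNGMT arrays, 8.23 to 8.48, lie below the dashed line, and for Casq2 they lie close to it.

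For the rest of the genes, additivity was described by intervals, since a p above the threshold does not show that changes add. The departure is the joint change minus the sum of the single changes, and 0 means additive on the log2 scale. For NKX2.5 alone Nppa was the 1 gene called, and 163 genes (1.44%) had an unadjusted p under 0.05 (limma). Without HNGMT replicate 1 that number was 419 (3.7%). A fit of all 28 arrays with a set term called 195 genes for NKX2.5 alone. For most genes, then, no NKX2.5 change was shown to enter the sum beside the Hand2 change. A narrow interval for such a gene does not show how changes by both factors combine. For the departure no gene was called (limma, smallest adjusted p = 0.861), and 355 genes (3.14%) had an unadjusted p under 0.05. Without HNGMT replicate 1, 0 genes were called and 460 (4.07%) had such a p. That number was 891 without HNGMT replicate 2, 953 without HNGMT replicate 3, 209 without NGMT replicate 4 and 232 without HGMT replicate 3. It was largest, at 1962 of 11310 genes, in a fit of all 28 arrays with a set term. There the smallest adjusted p of a departure was 0.0625 (limma), and again 0 genes were called.

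The 95% interval of the departure lay wholly between -0.5 and 0.5 for 8934 genes (79%) and between -1 and 1 for 11133 (98.4%). For 177 genes it reached past 1 in size. Among the 1903 genes called for the joint change, 1421 (74.7%) lay within 0.5 and 1864 (98%) within 1. Among the 171 genes that changed by at least 2-fold, only 45 (26.3%) lay within 0.5 and 142 (83%) within 1. The intervals of these 171 genes were wider (median half-width 0.41 against 0.25 over all genes), and their departures were also more spread, with 5th and 95th percentiles of -0.47 and 0.62 against -0.26 and 0.20. The interval left out 0 for 37 of the 171, against 355 of 11310, with the HNGMT and GMT arrays that chose the 171 also entering the departure. Leaving out HNGMT replicate 1 put 93.2% of all genes within 0.5 and 99.4% within 1.

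The largest rises after adding both factors took in enzymes, secreted proteins and matrix proteins. Inmt, an N-methyltransferase of small amines, read 5.58, 5.47 and 5.85 in GMT and 11.15, 10.60 and 10.89 in HNGMT. It rose by 5.24 ± 0.14 (limma adjusted p = 4.21e-10), against a sum of single changes of 5.56, and the departure was -0.31 (-0.75 to 0.12). GMT arrays lay below the array median, and all HNGMT and HGMT arrays were far above it.

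Aldh3a1, an aldehyde dehydrogenase, read 7.30, 7.31 and 7.40 in GMT and 10.11, 10.36 and 10.38 in HNGMT. It rose by 2.94 ± 0.07 (limma adjusted p = 4.21e-10). The HGMT arrays, at 10.67, 10.77 and 10.74, lay above all HNGMT arrays, and the departure was -0.26 (-0.48 to -0.03), not called.

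Gpc3, a cell-surface glypican, read 9.07, 9.21 and 9.37 in GMT and 12.15, 12.24 and 12.31 in HNGMT, a rise of 3.02 ± 0.08 with a departure of 0.07 (-0.19 to 0.32). Pcolce2, an enhancer of procollagen processing, read 7.95, 8.15 and 7.97 in GMT and 10.90, 11.24 and 11.19 in HNGMT, a rise of 3.09 ± 0.1 with a departure of -0.37 (-0.68 to -0.06). For both genes every HNGMT array lay above every GMT array. The single differences were 3.16 with Hand2 and -0.21 with NKX2.5 for Gpc3, and 3.32 and 0.14 for Pcolce2.

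The other genes among the 12 largest rises were Ptn, which encodes the growth factor pleiotrophin (2.64 ± 0.1), the tachykinin gene Tac2 (2.57 ± 0.25), Serpind1, which encodes heparin cofactor II (2.51 ± 0.12), the retroviral sequence Erv3 (2.22 ± 0.13), Hand2, Casq2, Lyz2 and Wfdc17. In 6 of the 12 (Casq2, Erv3, Inmt, Lyz2, Serpind1 and Wfdc17) all GMT arrays lay below the array median. The interval of the departure held 0 for 9 of the 12 rises and left it out for Aldh3a1, Pcolce2 and Erv3, against 355 of 11310 genes. The HNGMT and GMT arrays that chose the 12 also enter the departure. An interval that holds 0 does not show that changes add, and those of Lyz2 and Wfdc17 were wide. When HNGMT replicate 1 was dropped it also left out 0 for Inmt (-0.45, -0.83 to -0.06), and for Erv3 the departure was 0.39 (unadjusted p = 0.0514).

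Lyz2, the macrophage lysozyme, and Wfdc17, a whey-acidic-protein family gene, stood apart from the other rises. Lyz2 read 11.03, 10.50 and 7.66 on the HNGMT arrays and 5.87, 6.04 and 6.68 in GMT, a rise of 3.54 ± 0.75 (limma adjusted p = 0.00751). Wfdc17 read 10.90, 9.65 and 6.96 in HNGMT and 6.35, 6.84 and 6.32 in GMT, a rise of 2.66 ± 0.69 (adjusted p = 0.0211). Both genes were high on HNGMT replicates 1 and 2 and close to the array median or less than 1 log2 above it on replicate 3. For Lyz2 the single differences, not called, were 0.29 with Hand2 and 1.00 with NKX2.5, and the departure was 2.25 (-0.07 to 4.56). For Wfdc17 they were -0.02 and 0.97, not called, and the departure was 1.72 (-0.41 to 3.84). These intervals hold 0 and large departures alike. The departures were 1.60 and 0.85 with HNGMT replicate 1 left out. Without HNGMT replicate 1 the joint difference was 2.89 for Lyz2 (limma adjusted p = 0.0172) and 1.80 for Wfdc17 (adjusted p = 0.0341). The Wfdc17 call was lost without GMT replicate 3, GMT replicate 5 or HNGMT replicate 2.

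The summed unlogged signal of 19 macrophage markers was 5232, 4013 and 1793 on the HNGMT arrays. It was 1724 to 2002 in GMT, 1665 to 1678 in HGMT and 1691 to 2413 in NGMT. Lyz2 is itself 1 of the 19, so the sum is not a separate measure of its rise. Of the 19 markers, 10 lay below the array median on all 12 arrays, among them Adgre1, Ptprc and Itgam. Only 3 of the listed markers were tested, and Lyz2 was the 1 called. The part of a few macrophages in the rises of Lyz2 and Wfdc17 was not tested. In whole cultures a change in the number of cells of a type cannot be told apart from a change in RNA per cell.

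The largest falls led with Hsd3b6, a steroid dehydrogenase. It read 9.26, 8.76 and 9.29 in GMT and 5.27, 5.58 and 5.56 in HNGMT, a difference of -3.63 ± 0.14 (limma adjusted p = 1.24e-08), and the HNGMT arrays lay below the array median. The sum of single changes was -3.92, and the departure was 0.29 (-0.15 to 0.72). Cck, the cholecystokinin gene, read 10.44, 10.08 and 10.69 in GMT and 7.27, 6.42 and 7.13 in HNGMT, a difference of -3.47 ± 0.2 with a departure of 0.39 (-0.24 to 1.02).

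The other falls among the 12 largest were Gpr165, an orphan receptor gene (-3.13 ± 0.16), Fibin, the fin bud initiation factor gene (-2.67 ± 0.16), Myl7, the gelatinase gene Mmp9 (-2.42 ± 0.34), 2610528A11Rik (-2.39 ± 0.19), the nuclear body gene Sp100 (-2.33 ± 0.13), the cochlin gene Coch (-2.16 ± 0.09), the estrogen-responsive gene Greb1 (-2.05 ± 0.19), Nt5e, which encodes the ectonucleotidase CD73 (-1.97 ± 0.21), and Tnni3. In 5 of the 12 (Fibin, Gpr165, Greb1, Hsd3b6 and Sp100) all HNGMT arrays and all HGMT arrays lay below the array median. The HGMT and HNGMT means were 5.74 and 5.76 for Gpr165, 5.71 and 5.75 for Greb1, and 5.44 and 5.90 for Fibin. If these are at background, a further fall cannot be read. The departure then cannot show whether changes add for these 5 genes. The departure's interval held 0 for 7 of the 12 and left it out, on the positive side, for Gpr165, Fibin, 2610528A11Rik, Coch and Greb1. Over all genes it left out 0 for 355 of 11310. The HNGMT and GMT arrays that chose the 12 also enter the departure. A GMT mean that is high by its spread enlarges the fall and raises the departure, so the 5 genes are no separate sign of non-additivity. In the fit without HNGMT replicate 1 it also left out 0 for Myl7, on the negative side.

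**Figure D3:**
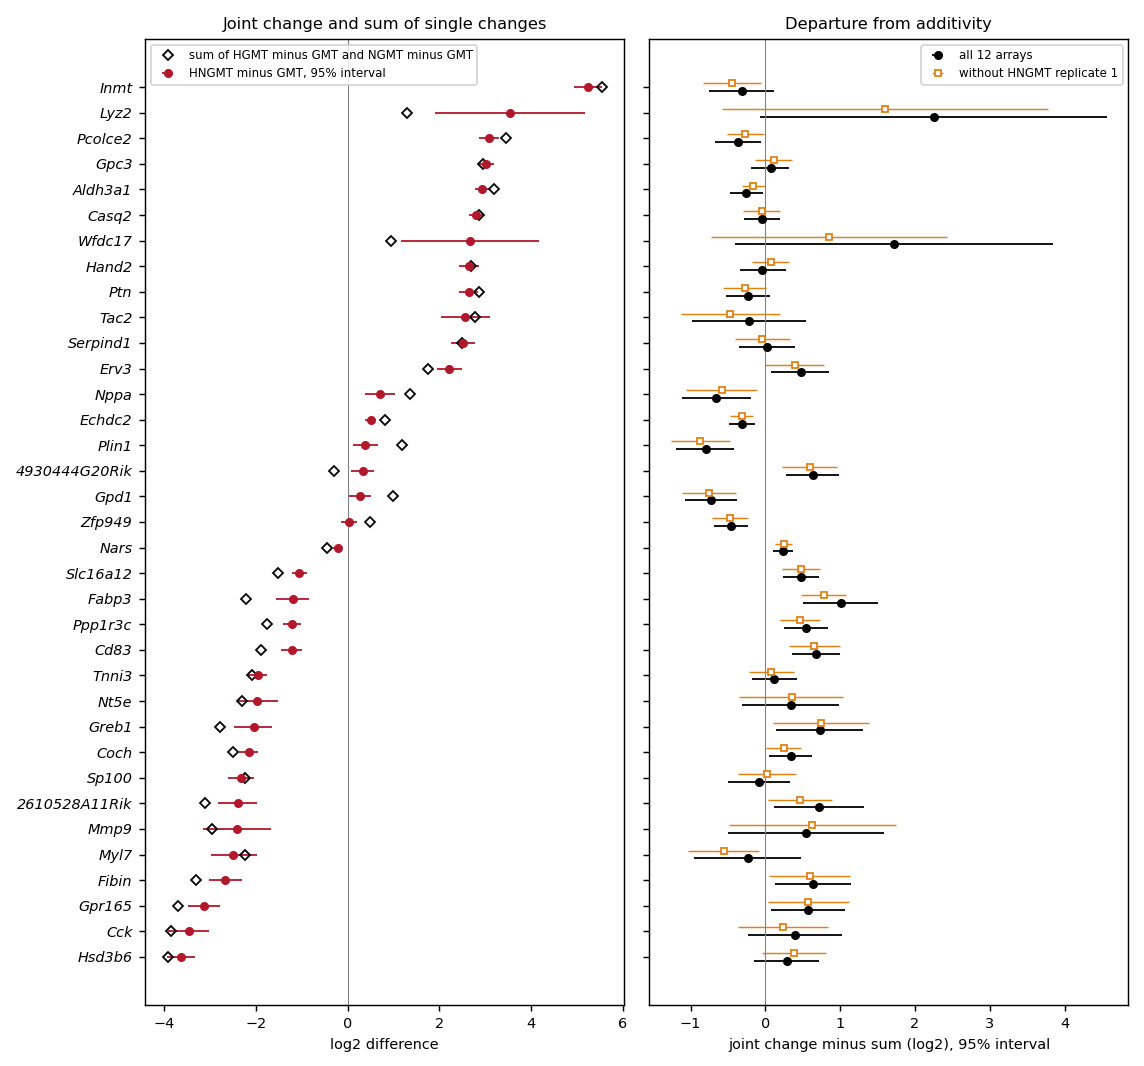
Left, the joint change of the 12 largest rises, the 12 largest falls, Nppa and the 10 genes of smallest departure p, in log2 with 95% intervals, beside the sum of the single changes as open diamonds. Right, the departure with its 95% interval, with all 12 arrays and without HNGMT replicate 1. Inmt rose most, by 5.24, and the widest interval is that of Lyz2.

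Sarcomere genes fell more often than they rose. Of 21 tested, 9 fell and 3 rose, against 11.2% and 5.67% of all genes, and the median joint change was -0.13 against -0.04 over all genes. Across quantile and median scaling and the fit without HNGMT replicate 1, 7 or 8 fell and 3 rose. With Hand2 alone 6 fell and 2 rose, against 7.73% and 7.22% of all genes. The falls were led by atrial and shared contractile genes, while the troponin C gene Tnnc1 (0.80 ± 0.16), the alpha myosin heavy chain gene Myh6 (0.42 ± 0.13) and the M-band gene Myom1 (0.28 ± 0.08) rose. With dim signals raised to the array median 1 of the 3 rises was left. The GMT means of Myh6 and Myom1 lay below the array medians, and that of Tnnc1 above them.

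Myl7 read 10.99, 10.97 and 11.40 in GMT and 9.26, 8.09 and 8.56 in HNGMT, a difference of -2.49 ± 0.23 (limma adjusted p = 2.05e-05). With Hand2 alone it read 8.87, 8.92 and 9.29, and with NKX2.5 alone 11.02, 10.94 and 10.96. HNGMT and HGMT arrays overlapped, both lay below all GMT and NGMT arrays, and the departure was -0.24 (-0.96 to 0.47). Leaving out HNGMT replicate 1, the highest of its group, gave a joint change of -2.80 and a departure of -0.55 (-1.03 to -0.08; unadjusted p = 0.0262, limma adjusted p = 1).

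Myl4, the atrial essential light chain gene, read 12.30, 12.22 and 12.13 in GMT and 10.38, 10.07 and 10.34 in HNGMT, a difference of -1.95 ± 0.11. Tnni3, the cardiac troponin I gene, read 10.61, 10.51 and 10.48 in GMT and 8.66, 8.34 and 8.73 in HNGMT, a difference of -1.96 ± 0.1. The intermediate filament gene Des read 11.61, 11.38 and 11.39 in GMT and 9.47, 9.85 and 9.95 in HNGMT, a difference of -1.71 ± 0.11. Their departures were -0.05 (-0.41 to 0.30), 0.12 (-0.18 to 0.42) and 0.04 (-0.29 to 0.37), so for each of the 3 genes a departure of 0.5 log2 lay outside the interval. Smpx, a small muscle protein gene, also fell (-1.94 ± 0.16), as did Myom2, another M-band gene (-1.42 ± 0.12).

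Of 12 tested atrial and natriuretic genes 6 fell and 2 rose, Nppa and the amidating enzyme gene Pam (0.32 ± 0.05), against 11.2% and 5.67% of all genes, with a median of -0.28. With Hand2 alone 6 fell and 1 rose, against 7.73% and 7.22% of all genes. Nppc, the C-type natriuretic peptide gene, read 8.27, 8.10 and 7.91 in GMT and 7.15, 7.02 and 7.42 in HNGMT, a difference of -0.90 ± 0.12. Corin, the peptide-processing protease gene, fell too (-0.29 ± 0.08). So the peptide genes parted: Nppa rose and Nppc fell, while Nppb differed by -0.27 ± 0.1 and was not called (limma adjusted p = 0.0726), though it was without HNGMT replicate 1 (-0.33). Of 6 ventricular genes 1 was called, the LIM-domain gene Fhl2, which rose by 1.48 ± 0.06.

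Of 20 calcium-handling genes 3 rose and 4 fell, against 5.67% and 11.2% of all genes. Under quantile or median scaling 2 fell, and without HNGMT replicate 1 5 rose. Casq2, the calcium store of the sarcoplasmic reticulum, read 6.24, 6.27 and 6.17 in GMT, below the array median, and 9.03, 9.05 and 9.02 in HNGMT. It rose by 2.81 ± 0.08 (limma adjusted p = 4.21e-10) against a sum of single changes of 2.86, and the departure was -0.05 (-0.29 to 0.19). S100a1, a calcium sensor of muscle, rose by 0.49 ± 0.07. The ryanodine receptor gene Ryr2 fell (-0.51 ± 0.11), and so did the calcium pump gene Atp2a2 (-0.33 ± 0.1, and -0.18 without HNGMT replicate 1).

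Of 8 ion channel and gap junction genes 2 rose and 3 fell, against 5.67% and 11.2% of all genes. The pacemaker channel gene Hcn4 rose by 0.58 ± 0.13 and the Popeye gene Popdc2 by 0.69 ± 0.07. Popdc3 (-0.73 ± 0.08), the potassium channel gene Kcnh2 (-0.65 ± 0.11) and the connexin gene Gja1 (-0.20 ± 0.05) fell. With Hand2 alone, measured against the same GMT arrays, the differences were 0.83 for Hcn4, 0.63 for Popdc2, -0.73 for Popdc3, -0.72 for Kcnh2 and -0.30 for Gja1.

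Among 24 other cardiac transcription regulators 4 rose and 3 fell. The shares over all genes, for this list and the next, were 5.67% and 11.2%. Tbx20, a T-box gene of the developing heart, read 5.32, 5.24 and 5.35 in GMT, below the array median, and 6.75, 7.12 and 7.54 in HNGMT, a rise of 1.83 ± 0.15. Its call was lost with dim signals raised to the array median. The epicardial regulator Wt1 rose by 1.23 ± 0.12 and Gata6 by 0.52 ± 0.12, and Tbx3, a T-box repressor of the conduction system, fell (-0.77 ± 0.1). All GMT arrays of Wt1 lay below the array median. Of 18 tested genes known from textbooks as NKX2.5 targets, 4 rose and 5 fell (4 and 3 with median centring), with a median of -0.01, and Nppa was the 1 called for NKX2.5 alone.

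Interferon-response genes fell together. Of 33 tested, 23 fell and 0 rose, against 11.2% and 5.67% of all genes, with a median of -0.50, and 20 to 23 fell under the scalings and without HNGMT replicate 1. Oas2, an antiviral oligoadenylate synthetase gene, read 10.73, 10.51 and 10.40 in GMT and 8.27, 8.90 and 9.25 in HNGMT, a difference of -1.74 ± 0.21. Irf7, the regulator of type I interferon genes, read 10.61, 10.19 and 10.12 in GMT and 9.04, 8.86 and 9.26 in HNGMT, a difference of -1.25 ± 0.17. HNGMT arrays lay below all GMT arrays for both.

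With Hand2 alone 21 of the 33 fell, against 7.73% of all genes falling, and with NKX2.5 alone 0 were called. The list's median departure was -0.01, and 0 of its members had an unadjusted departure p under 0.05. Of 30 inflammatory and acute-phase genes 8 fell and 2 rose, against 11.2% and 5.67% of all genes, with a median of -0.29. Il33, an alarmin gene, fell (-1.52 ± 0.12) and Ptgs2, the inducible cyclooxygenase gene, likewise (-1.31 ± 0.08). The chemokine gene Ccl5 read 9.26, 8.89 and 8.94 in GMT and 8.53, 7.56 and 8.30 in HNGMT, a difference of -0.90 ± 0.2 against -1.50 with Hand2 alone.

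Fibroblast and matrix genes were called higher more often than lower. Of 53 tested 11 rose and 3 fell, against 5.67% and 11.2% of all genes, with 16 and 3 without HNGMT replicate 1 and 11 and 5 with the replicate block, and their median was -0.01. With Hand2 alone 14 rose and 3 fell, against 7.22% and 7.73% of all genes. The collagen-binding Fmod rose by 1.86 ± 0.35, Col14a1 by 1.30 ± 0.13 and Cthrc1 by 1.14 ± 0.06, while the matricellular Tnc fell (-0.70 ± 0.11) and so did Thbs2 (-0.64 ± 0.08). Of 9 cartilage and bone genes 4 rose, among them Comp (1.28 ± 0.19), and 2 fell, among them Col10a1 (-0.97 ± 0.1), or 1 fell without HNGMT replicate 1.

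The next lists also compare with 5.67% of all genes rising and 11.2% falling. Of 32 genes of the TGF-beta and BMP response 6 rose and 7 fell, led by the BMP antagonist Grem1 (-1.36 ± 0.14) and the activin subunit gene Inhba (-1.02 ± 0.1). Of 31 Wnt genes 5 rose and 4 fell, among them the secreted inhibitor Wif1 (1.48 ± 0.09) and the Frizzled-related Sfrp4 (-1.39 ± 0.29). All GMT arrays of Wif1 lay below the array median. Of 18 smooth muscle genes 2 rose, Itga8 (1.87 ± 0.1) and Mylk (1.03 ± 0.17), and 5 fell, Des among them, against 5.67% and 11.2% of all genes. With median centring 2 of these genes fell, and without HNGMT replicate 1 4 rose.

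For the 4 lists that follow, the shares over all genes were again 5.67% higher and 11.2% lower. Of 10 skeletal muscle genes 0 rose and 2 fell, the calcium buffer gene Pvalb (-1.85 ± 0.25) and the acetylcholine receptor gene Chrna1 (-0.50 ± 0.13). The Chrna1 call was lost without GMT replicate 3 or HNGMT replicate 2 and with dim signals raised. Of 18 cell cycle genes 4 rose, the cyclin genes Ccna2 (0.75 ± 0.1) and Ccnb2 (0.62 ± 0.11) among them, and 1 fell, or 6 and 0 with median centring. All GMT arrays of Ccna2 lay below the array median. Of 36 oxidative metabolism genes 2 rose and 5 fell, led by Fabp3, described below, and the pyruvate dehydrogenase kinase gene Pdk4 (-1.11 ± 0.09). With median centring 2 rose and 2 fell, and with dim signals raised 1 rose and 5 fell. Of 29 genes of the p53 and DNA damage response 3 rose and 4 fell. Of those called, Plk3 fell most (-0.65 ± 0.12) and Ckap2 rose most (0.34 ± 0.09). The Ckap2 call was lost without GMT replicate 5 or HNGMT replicate 2. The fatty acid transporter gene Cd36 read 6.52, 7.38 and 6.94 in GMT and 9.89, 8.76 and 7.27 in HNGMT, so that the groups overlapped. Its rise of 1.69 ± 0.51 was not called without HNGMT replicate 1, where it was 1.07.

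Markers of other cell types were counted in the same way, against 5.67% of all genes rising and 11.2% falling. Of 9 endothelial genes 4 rose, including the junction gene Cdh5 (1.05 ± 0.09), and 2 fell. The Cdh5 call was lost with dim signals raised to the array median, where its difference was 0.01. Pecam1, Kdr, Cldn5 and 8 other endothelial markers lay below the array median on all 12 arrays. Of 11 epithelial and mesothelial genes 4 rose, among them Cdh3 (1.27 ± 0.15), and 3 fell, led by Upk1b (-1.73 ± 0.14). Of 6 neural and glial genes 1 rose, Map2 (0.51 ± 0.1), and 3 fell, led by Nes (-1.38 ± 0.08). All HNGMT arrays of Nes lay below the array median.

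**Figure D4:**
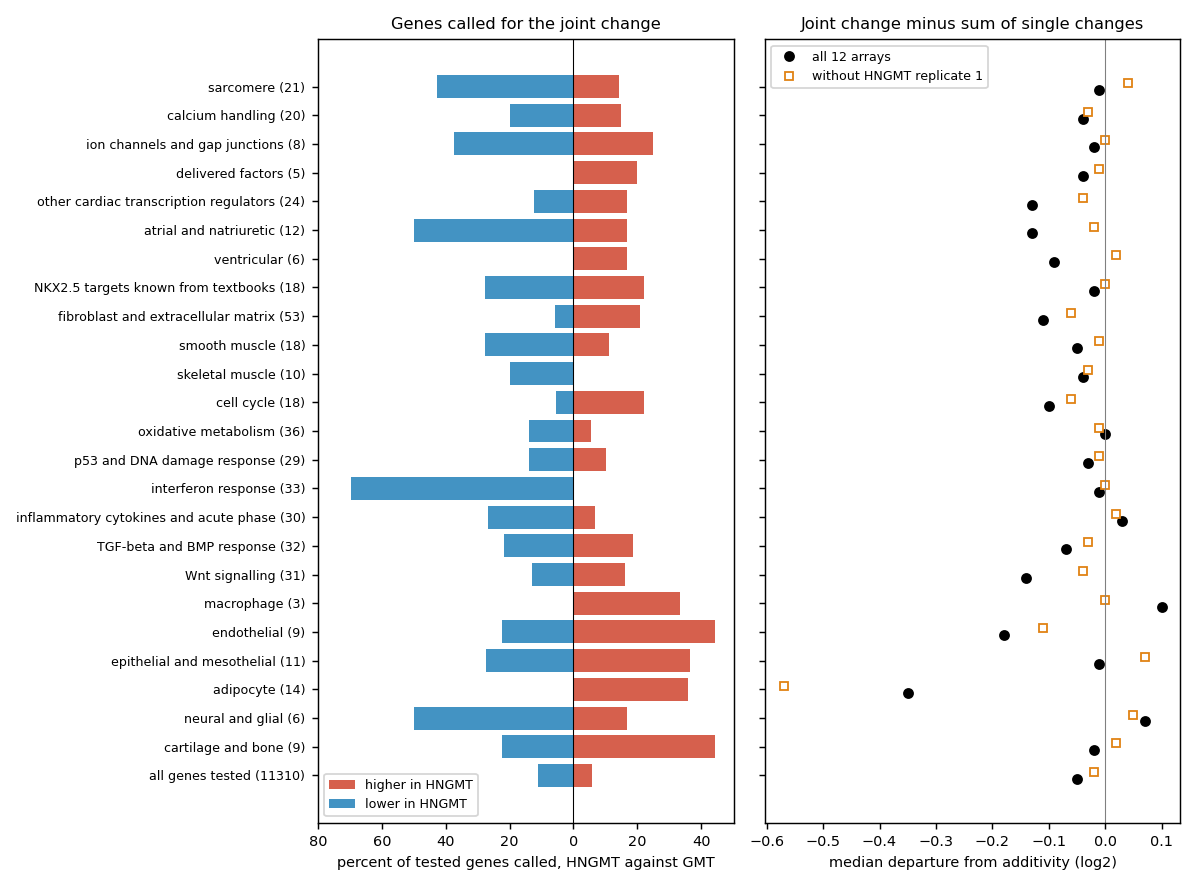
Left, the percent of tested genes in each list called higher or lower in HNGMT than in GMT, with the number tested in brackets and all 11310 genes at the foot. Right, the median departure of each list with all 12 arrays and without HNGMT replicate 1. Of the interferon-response genes, 23 of 33 fell, and the adipocyte list has the lowest median departure, -0.35 and -0.57.

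The adipocyte list gave the lowest median departure of the 24 lists. With Hand2 alone 11 of its 14 tested genes rose, against 7.22% of all genes rising, with a median of 0.72. With both factors 5 rose, among them the carbonic anhydrase gene Car3 (1.55 ± 0.27) and the lipoprotein lipase gene Lpl (0.73 ± 0.17), and 0 fell, against 5.67% and 11.2% of all genes, with a median of 0.42. The departure was below 0 for all 14, with a median of -0.35, against 7323 of 11310 genes and a median of -0.05. An unadjusted p under 0.05 was reached by 7 of the 14, against 3.14% of all genes, and by 13 without HNGMT replicate 1, against 4.07%, where the median was -0.57. Under quantile or median scaling 4 to 7 of the 14 reached it. No member was called for the departure, the lists were chosen with earlier results known, and the HGMT and GMT arrays enter both the Hand2 change and the departure.

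Plin1, the lipid droplet coat gene, read 7.38, 7.78 and 7.38 in GMT, 8.59, 8.35 and 8.49 in HGMT, 7.96, 7.63 and 7.61 in NGMT and 8.03, 7.79 and 7.87 in HNGMT. All HGMT arrays lay above all others, and HNGMT overlapped NGMT. The joint difference was 0.38 ± 0.12, not called (limma adjusted p = 0.055), against a sum of 1.19, and the departure was -0.80 (-1.19 to -0.42; unadjusted p = 0.000698, adjusted p = 0.861). Its joint difference was called without GMT replicate 4, without NGMT replicate 4, with arrays centred on their medians, with 15 arrays in the fit and with all 28.

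Gpd1, the glycerol-3-phosphate dehydrogenase gene, had the smallest departure p of all genes (0.000591, adjusted p = 0.861). It read 8.39, 7.94 and 8.30 in HGMT and 7.67, 7.64 and 7.50 in HNGMT, against 7.39, 7.39 and 7.25 in GMT and 7.51, 7.56 and 7.31 in NGMT. HNGMT arrays lay below all HGMT arrays, and the departure was -0.73 (-1.07 to -0.38).

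The next 3 lipid genes were picked out after their values were seen: Scd1, a fatty acid desaturase gene, averaged 12.46 in HGMT and 11.98 in HNGMT, with a departure of -0.53. Dgat2, which makes triglyceride, averaged 8.27 and 7.91, with a departure of -0.51. Lipe, the hormone-sensitive lipase gene, averaged 8.67 and 8.29, with a departure of -0.35. With Hand2 alone the 3 genes rose, by 0.68, 0.36 and 0.34, and with both their differences, not called, were 0.20, 0.01 and -0.04. Retn, the resistin gene, rose by 1.38 ± 0.42 with both, a call lost in 11 of the alternatives run. It read 9.17, 7.36 and 7.00 on the HNGMT arrays, and without replicate 1 its rise was 0.72. All GMT arrays of Retn lay below the array median. The summed unlogged signal of the adipocyte markers was 8811 to 11145 in GMT, 16500 to 20487 in HGMT, 10053 to 11897 in NGMT and 17447, 14067 and 12472 on the HNGMT arrays. It was highest among HNGMT arrays on replicate 1, and the part of adipocyte number in these values was not tested.

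Other genes with the smallest departure p went either way, and none was called. Fabp3, the heart fatty acid-binding protein gene, read 9.74, 9.34 and 9.51 in GMT, 7.61, 7.57 and 7.77 in HGMT, 9.18, 9.14 and 9.29 in NGMT and 8.79, 8.16 and 8.04 in HNGMT. It fell (-1.20 ± 0.16) with both factors against a sum of -2.21, with a departure of 1.01 (0.50 to 1.51; adjusted p = 0.861). HNGMT arrays lay between those of HGMT and NGMT without overlap, and HNGMT replicate 1 was the highest of its group. Without it the departure was 0.78.

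Cd83, a surface gene of activated immune cells, fell with both factors (-1.22 ± 0.1) and with Hand2 alone (-1.28), and differed by -0.62 with NKX2.5 alone, not called, for a departure of 0.67 (0.35 to 0.99). Its HGMT and HNGMT arrays both lay below the array median, as did those of Slc16a12, so a further fall may not be readable for either gene. The remaining genes of this group were the carrier gene Slc16a12 (departure 0.47), the glycogen-targeting Ppp1r3c (0.54), Zfp949 (-0.46), Echdc2 (-0.31), 4930444G20Rik (0.63) and the asparaginyl-tRNA synthetase gene Nars (0.24).

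Finally, the change made by Hand2 was compared without and with NKX2.5, in HGMT against GMT and in HNGMT against NGMT, which share no array. The first called 1691 genes (15%) and the second 1601 (14.2%). Called in both were 1069, 63.2% of the first and 66.8% of the second, and all 1069 went the same way. Of the 1691, 1676 (99.1%) had the same sign in the second comparison, called or not. Across 11310 genes the correlation of the differences was 0.87 (Pearson) and 0.69 (Spearman), a description over genes that are not independent. Without HNGMT replicate 1, 3168 and 2297 genes were called, 1855 of them in both, and the correlations were 0.94 and 0.84. The first comparison holds no HNGMT array, and its count moved because that array enters the estimate of spread that all groups share.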

How the data were processed

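Total RNA of mouse cell cultures was measured on single-channel arrays. The authors deposited 1 matrix of 35556 probe sets by 28 arrays in log2 signal, with values of 3.757941 to 14.46866. The submitters' processing notes name MAS5 and no other tool. Its version and the summary of probes into signals are not stated in the sources used here. By the distance between sorted values the arrays fell into 3 sets, and the 12 used lie in a set of 15 (largest distance among them 0.0466 log2, smallest between sets 0.135). All 28 columns were read (0 columns not used). Arrays have no read depth, so their number limits the precision: the median half-width of a 95% interval was 0.18 for the joint change and 0.25 for the departure.

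In the platform's annotation 21789 probe sets carry a single gene symbol, 1621 carry several and 12146 carry no symbol. A gene was read from its single-symbol probe set of highest mean over all 28 arrays. Of the single-symbol probe sets, 21698 were matched by Entrez ID to RefSeq, which changed 0 symbols. Fits used limma 3.58.1 in R 4.3.3 (lmFit, contrasts, eBayes with trend, 12 arrays, 4 groups, 8 residual degrees of freedom). The 6 comparisons used two-sided tests, each with its own Benjamini-Hochberg adjustment. The fit was tested on simulated data. The plan allowed for unlogged signal, but the values were already log2 and were used as deposited.

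The members and the 24 gene lists (699 entries, 456 tested) were chosen with earlier results of these data known. Genes were named by rule: the delivered factors; the 12 largest called rises and 12 largest called falls without overlap of HNGMT and GMT arrays; the 10 smallest departure p, since no departure was called; up to 3 called members of each list; and genes called for NKX2.5 alone. Of these 91 genes, 68 had a promoter sequence. Other list members in the text were chosen after their values were seen. Alternatives were quantile and median scaling, no filter, raised dim signals, other sets of arrays, no trend, mean of probe sets, the replicate block, unlogged signal and each array left out. Quantile scaling without HNGMT replicate 1 was added after the data were seen.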

Additional observations from a re-analysis of the deposited data

How the results depend on the processing

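No departure from additivity was called under any alternative run, and with each array left out in turn the count ran from 0 to 0. Called genes for the joint change ran from 1172 (without GMT replicate 3) to 2408 (without HNGMT replicate 1) over the fits without 1 array, for Hand2 alone from 1098 (without HGMT replicate 3) to 3168 (without HNGMT replicate 1), for Hand2 beside NKX2.5 from 900 (without NGMT replicate 6) to 2297 (without HNGMT replicate 1), for NKX2.5 alone from 1 to 1 and for NKX2.5 beside Hand2 from 1 to 4 (4 without HNGMT replicate 3). A fit of all 28 arrays with a set term, which has more arrays, called 4154 genes for the joint change, 3120 for Hand2 alone, 195 for NKX2.5 alone, 62 for NKX2.5 beside Hand2, 3767 for Hand2 beside NKX2.5 and 0 departures. In that fit 1962 genes had an unadjusted departure p under 0.05 (limma), and the smallest adjusted p was 0.0625. NKX2.5 alone called 2 genes with no filter and 2 with dim signals raised to the array median.

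The replicate block called 1760 genes for the joint change, 1631 for Hand2 alone, 1480 for Hand2 beside NKX2.5, 1 for NKX2.5 alone, 1 for NKX2.5 beside Hand2 and 0 departures. The block numbered arrays by their order within each group, so that GMT replicate 3, NGMT replicate 4, HGMT replicate 1 and HNGMT replicate 1 shared a number. Of 18 pairs of arrays with 1 number, 5 had a correlation of deviations above 0.1 (-0.23 to 0.22). These values did not show a pairing by number. Pairs of unlike number are not given beside them, so a pairing is not excluded.

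Of 2002 values of the joint change of 91 named genes under alternatives, 1958 kept direction and call, 36 lost the call, 8 gained it and 0 reversed. Of 83 genes called, 8 lost the call in at least 1 alternative, Cd36 in 13. Signal against background limits genes below the array median, whose sizes are not exact.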
